A study of Mus musculus with 14 samples.

Results

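The genes described here are 37 interferon-induced genes, chosen as a list of well-known targets of interferon signalling and found by name among 36161 gene names on a mouse expression array. Each was read from its brightest probe in 14 samples of 5 groups. Small intestine (3 arrays) came from adult wild type C57BL/6J mice older than 8 weeks, a different mouse for each array by the study's sample list. Adenoma (3 arrays) and adjacent tissue (2 arrays) were whole tissue pieces that the same list places under a single *Apc* Min/+ mouse, which carries a truncating mutation in 1 copy of the tumour suppressor gene *Apc* in every cell. Colon (3 arrays) was labelled C57BL/6J, although the sample list places 1 colon sample under an *Apc* Min/+ mouse. CT26 (3 arrays) is a colon carcinoma line from a BALB/c mouse, so that the line and its strain cannot be told apart, and neither labels nor methods say that its arrays came from separate cultures. Values are log2 of the background-subtracted signal minus the 75th percentile of the array, written below as scaled log2 signal. The adenoma arrays thus vary as lesions of 1 animal do, and not as animals.

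Interferons are secreted proteins, and cells release those of type I and type III when they sense microbial products such as viral or bacterial nucleic acids. Type I and type III interferons act through the kinases *Jak1* and *Tyk2* on a complex that holds *Stat2* and *Irf9* and switches on genes with an interferon-stimulated response element, whereas interferon gamma acts on gamma-activated sites. In the gut, epithelial cells and leukocytes alike express such genes at rest, in part in response to the resident microbes.

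A window around the start site, most of it upstream (GRCm38.p6, RefSeq), was at hand for 29 of the 37 genes, and not for *Dhx58*, *Zbp1*, *Ifi204*, *Mx1*, *Mx2*, *Oas2*, *Usp18* and *Rtp4*. The core of the response element, spelled GAAANNGAAA and searched on both strands, lay in the windows of 16 of the 29 genes (55.2%), against 3.99% of all 27025 genes with such a window. The gamma-activated site, spelled TTCNNNGAA and its own reverse complement, lay in those of 9 genes (31.0%), against 9.55% of all genes. The stretches below hold the response element of 8 genes to which the results return, read 5' to 3' along the strand of the gene, with the core (or its reverse complement) in capitals.

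*Isg15*, chr4:156200865-156200894, minus strand: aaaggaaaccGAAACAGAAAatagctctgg
*Stat2*, chr10:128270266-128270295, plus strand: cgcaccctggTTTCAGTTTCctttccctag
*Ifit1*, chr19:34640794-34640823, plus strand: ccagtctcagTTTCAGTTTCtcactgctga
*Oas3*, chr5:120777715-120777744, minus strand: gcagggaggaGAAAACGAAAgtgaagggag
*Ifi203*, chr1:173942508-173942537, minus strand: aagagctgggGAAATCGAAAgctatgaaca
*Gbp2*, chr3:142620594-142620623, plus strand: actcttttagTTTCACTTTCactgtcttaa
*Bst2*, chr8:71537577-71537606, minus strand: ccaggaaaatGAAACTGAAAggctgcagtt
*Irgm1*, chr11:48871425-48871454, minus strand: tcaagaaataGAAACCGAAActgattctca

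These are matches of letters and not sites shown to be bound. The gap between the core and the start site ranged from 14 bases in *Irgm1* to 212 in *Stat2* among the 8. *Isg15* carried the core at 3 overlapping places.

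The arrays were alike in quality, with 46.85% to 58.21% of probes well above background, and lay on 2 slides, each of which was also 1 scan. Colon replicate 3 stood apart. Over 20832 probes well above background on every array, it correlated at 0.9506 to 0.9687 with the small intestine arrays. With the other colon arrays it correlated at 0.9344 to 0.9383, and these correlated with each other at 0.9849. On it 4 of 8 colonocyte markers were well above background, against 8 of 8 on each of the other 2 colon arrays, and 10 of 10 markers of small intestine enterocytes, against 7 of 10. Differences from colon are therefore also given without this array. Epithelial markers were well above background on every tissue array (6 of 6), whereas CT26 had 2 to 3 of 6, with the epithelial genes *Epcam*, *Cdh1* and *Vil1* not well above background on any CT26 array.

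All 37 genes stood well above background throughout the arrays of small intestine, adjacent tissue, adenoma and CT26, and 34 did so on every colon array, the exceptions being *Ifi203*, *Oas3* and *Ifi44*, each on 2 of 3. CT26 had the highest group mean for 33 of them (89.2%, against 43.8% of 23651 genes that stood well above background throughout some group). The remaining 4 were *Irf1*, *Irf8* and *Ifi35*, which were highest in small intestine, and *Ifitm1*, which was highest in adenoma. Adenoma had the lowest group mean for 21 genes, adjacent tissue for 6, small intestine for 5, colon for 3 and CT26 for 2. For 26 genes (70.3%) every CT26 array lay above all 11 tissue arrays, as it did for 28.5% of those 23651 genes. The median of the 37 genes on an array was 4.13 to 5.28 in CT26, 1.30 to 2.60 in small intestine, 1.01 and 1.77 in adjacent tissue, 0.78 to 1.13 in adenoma and 0.44 to 2.50 in colon. Colon therefore spanned nearly the whole range of the other tissues.

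**Figure D1:**
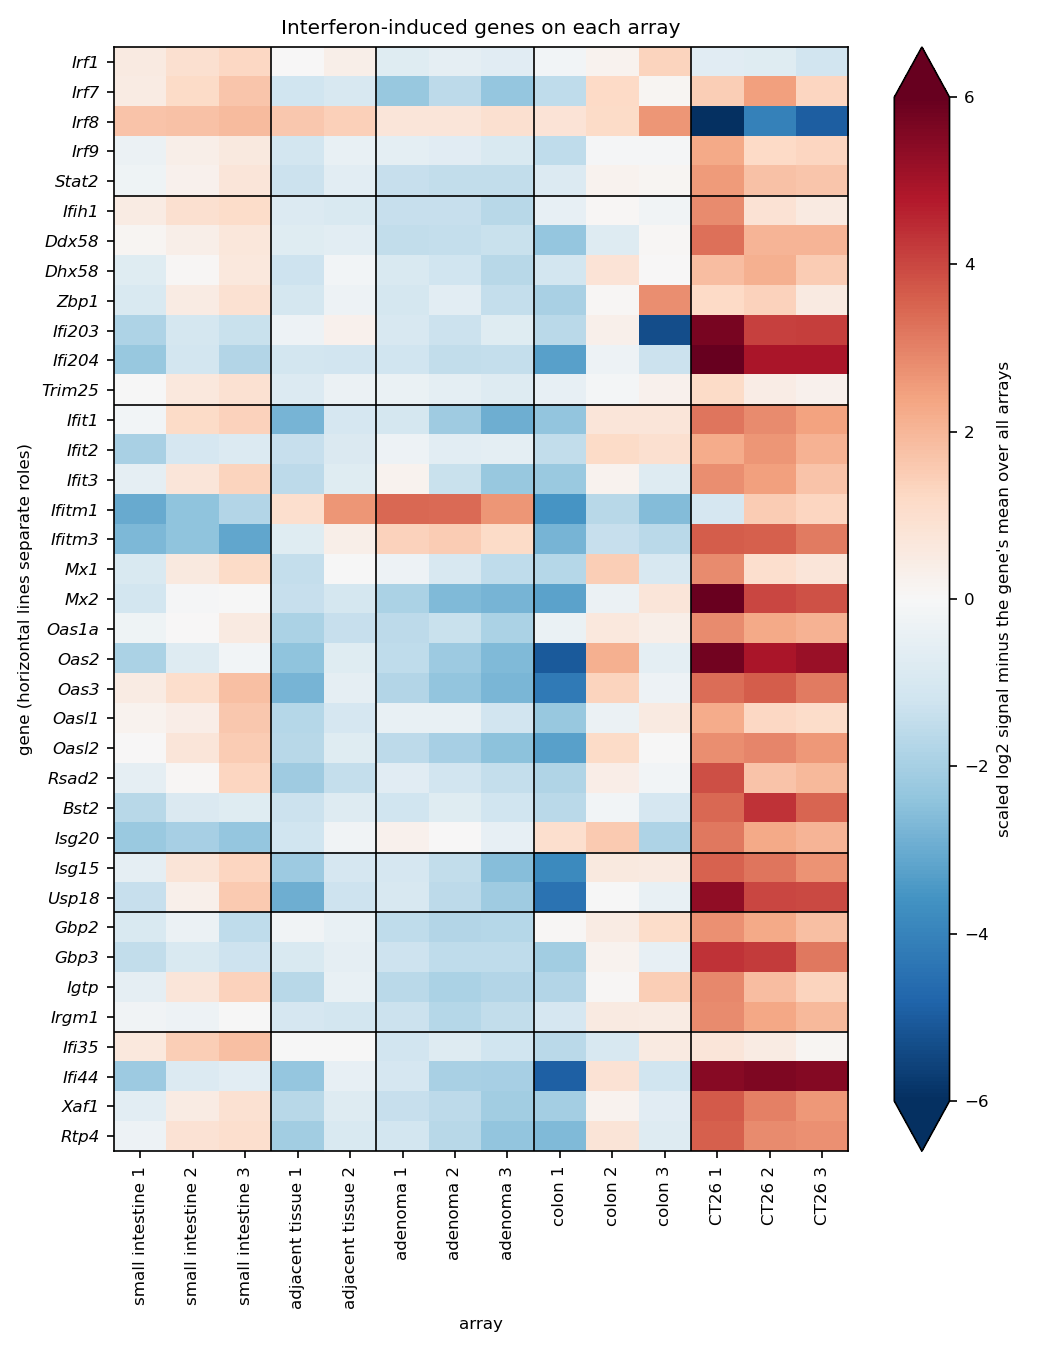
Scaled log2 signal of the 37 interferon-induced genes (rows, ordered by role) on the 14 arrays (columns), each as the difference from the gene's own mean over all arrays, with the colour scale ending at 6 in either direction. CT26 is above the mean for most genes, except *Irf8* and *Irf1*, and *Ifitm1* is above its mean on every array of adenoma and adjacent tissue and *Ifitm3* on every array of adenoma, where most other genes are below theirs.

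Within every group the 37 genes shared an array on which most of them were lowest. Colon replicate 1 was the lowest of the 3 colon arrays for 35 of the 37, and for 26.0% of all 19102 genes above background throughout colon. Small intestine replicate 1 was the lowest of its group for 33 genes, against 40.0% of all such genes. Adjacent tissue replicate 1 was the lower one for 31 genes, adenoma replicate 3 the lowest for 28 and CT26 replicate 3 the lowest for 29, against 46.3%, 35.8% and 30.7%. These arrays differ in animal, piece or preparation as well as in slide, and which of these goes with the shift was not tested. The median SD of the 37 genes between arrays was 1.23 in colon, 0.61 in small intestine, 0.49 in CT26, 0.48 in adjacent tissue and 0.36 in adenoma. Over all genes that stood well above background throughout a group it was 0.41, 0.29, 0.33, 0.20 and 0.17 in the same order. *Usp18*, the protease that removes *Isg15* from proteins, showed the range within colon, at -3.03, 1.36 and 0.93, and within small intestine, at 0.01, 1.72 and 2.95.

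**Figure D2:**
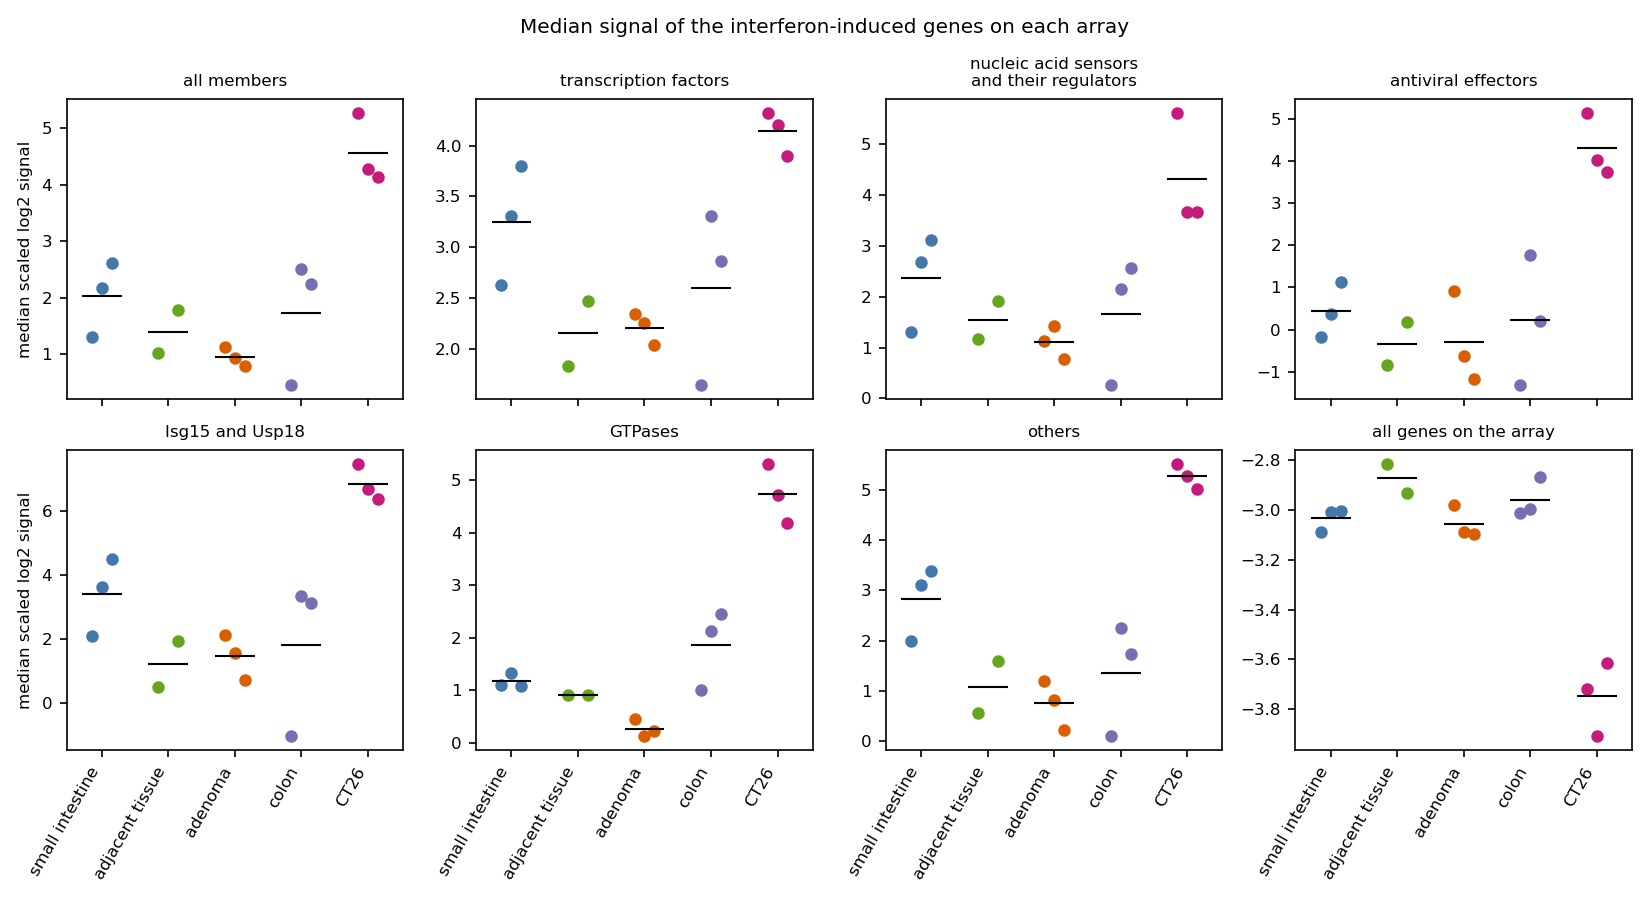
Median scaled log2 signal on each array over all 37 genes, over each role and over all 36161 genes on the array, with a point per array, a line at the group mean and a scale of its own in each panel. CT26 arrays are highest in every panel of interferon-induced genes and lowest in the panel of all genes, and the colon arrays are spread most in the panel of all members.

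Adenoma was first compared with small intestine, the healthy organ in which such adenomas arise. By the sample list all adenoma arrays come from 1 *Apc* Min/+ mouse and those of small intestine from wild type mice. Lesion, genotype and animal therefore cannot be told apart in this comparison. Of the 37 genes, 15 were lower in adenoma (40.5%) and 3 were higher (8.11%), where 11.1% and 11.3% of the 22094 genes tested were called in these directions. A call required a log2 difference of 1.2 or more in size and a limma p no higher than 0.01 after Benjamini-Hochberg adjustment. The median difference of the 37 genes was -1.36, and that of all genes tested was -0.15. For 22 genes (59.5%) every adenoma array lay below every small intestine array, as it did for 37.4% of 22065 genes. All 3 genes that were higher, *Ifitm1*, *Ifitm3* and *Isg20*, encode antiviral effectors.

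*Ifitm1* and *Ifitm3* encode small membrane proteins that block the fusion of viruses with cell membranes, and lie near each other on chromosome 7 (probes at 148155659 to 148155718 and 148195591 to 148195650, NCBI37/mm9). *Ifitm1* measured 5.92, 5.89 and 5.14 on the adenoma arrays and -0.52, 0.06 and 0.71 on those of small intestine. Every adenoma array lay above every small intestine array, a difference of 5.57 (standard error 0.36, limma adjusted p = 0.000107) or 47.5-fold. *Ifitm3* measured 5.41, 5.52 and 5.14 in adenoma and 1.31, 1.58 and 0.91 in small intestine. It too was without overlap, with a difference of 4.09 (standard error 0.22, limma adjusted p = 7.48e-05), or 17.1-fold. *Isg20*, an exonuclease of RNA, was 4.31-fold higher.

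The 3 genes furthest in the other direction were *Oas3*, *Irf7* and *Ifit1*. *Oas3*, which makes oligoadenylates upon binding double-stranded RNA and has the response element printed above, measured -2.46, -3.03 and -3.44 in adenoma and -0.18, 0.38 and 1.13 in small intestine. Its groups did not overlap, and it was lower by more than 10 times (log2 difference -3.42, standard error 0.39, limma adjusted p = 0.000641). *Irf7*, the transcription factor that amplifies type I interferon production, measured -0.13, 0.55 and -0.18 in adenoma and 2.63, 3.30 and 3.80 in small intestine. The groups stood more than 2 log2 units apart at their nearest arrays, and the fold was 8.98 (log2 difference -3.17, standard error 0.34, limma adjusted p = 0.000549). *Ifit1*, which binds viral RNA lacking a methylated cap, measured 0.01, -1.09 and -1.89 in adenoma and 0.90, 2.18 and 2.45 in small intestine. Its gap between groups was the narrowest of these, with a difference of -2.83 (standard error 0.57, limma adjusted p = 0.00613).

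By role, the transcription factors *Irf7*, *Stat2* and *Irf1* were lower, by 8.98-, 3.23- and 2.95-fold, whereas *Irf8*, a factor of myeloid and B cells, had a log2 difference of -0.99, short of the fold required, with no overlap and a limma adjusted p of 0.00239. Among 7 nucleic acid sensors and their regulators, *Ifih1* and *Ddx58*, which encode the cytosolic receptors of double-stranded RNA MDA5 and RIG-I, were 5.02- and 3.49-fold lower. Among 15 antiviral effectors, *Oas3*, *Ifit1*, *Oasl2*, *Mx2* and *Oas1a* were lower and 7 were not called. Both of the 2 immunity-related GTPases on the list, *Igtp* and *Irgm1*, were lower, by 4.87- and 2.50-fold, and neither of the guanylate-binding proteins *Gbp2* and *Gbp3* was called, at log2 differences of -0.72 and -0.21. *Ifi35*, *Rtp4*, which helps receptors to the cell surface, and *Xaf1*, which promotes apoptosis, were lower by 5.01-, 4.66- and 3.83-fold. *Isg15*, the ubiquitin-like modifier, had a log2 difference of -2.18 with no overlap and a limma adjusted p of 0.0163, short of the threshold. *Trim25*, the ubiquitin ligase that acts on RIG-I, had probes that disagreed, since the brighter showed a log2 difference of -1.09 (limma adjusted p = 0.0133) and the other 1.90 (limma adjusted p = 0.00464).

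The 19 genes that were not called had log2 differences from -2.18 to 0.75. Among them *Usp18*, *Ifit3*, *Zbp1*, *Mx1*, *Oas2*, *Gbp2*, *Ifi44*, *Gbp3*, *Bst2*, *Ifi204* and *Ifi203* overlapped between the groups, whereas *Isg15*, *Oasl1*, *Rsad2*, *Dhx58*, *Trim25*, *Irf8* and *Irf9* were below small intestine on every adenoma array and *Ifit2* was above it.

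The calls of *Ifit1*, *Igtp*, *Rtp4* and *Xaf1* held under only 6, 5, 5 and 4 of 14 alternatives, with limma adjusted p-values up to 0.0264, 0.0281, 0.0286 and 0.0289. The call of *Mx2* held under 8 of the 14, with a limma adjusted p up to 0.071. Those of *Ifitm1*, *Ifitm3*, *Irf7*, *Irf1*, *Ifih1* and *Ifi35* held under all 14.

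Markers of other cells also differed between adenoma and small intestine. Of 4 T cell markers 3 had a lower mean in adenoma, and their summed signal was 1.38 to 1.67 (log2 of the sum, 3 to 4 of 4 above background) against 2.63 to 3.33 (4 of 4). Of 6 macrophage and monocyte markers (6 of 6 above background in adenoma, 5 of 6 in small intestine), *Itgam*, *Lyz2* and *Csf1r* had a lower mean in adenoma and *Cd68*, *Emr1* and *C1qa* a higher one, and the medians of the list overlapped, at 0.20 to 0.52 against 0.43 to 1.36. Their sum, 3.89 to 4.57 against 6.01 to 6.58, followed *Itgam*, with means of 2.95 and 6.04. Enterocyte markers summed to 8.97 to 9.72 against 10.64 to 12.19 (10 of 10 in both) and smooth muscle markers to 4.35 to 4.72 against 5.23 to 7.21 (3 of 3 in both). The sums of epithelial and colonocyte markers were also lower without overlap, while those of leukocytes (1.65 to 2.45, 4 of 4, against 1.97 to 2.47, 3 to 4 of 4), B cells, plasmacytoid dendritic cells and endothelium overlapped. Of 6 epithelial markers 5 had a lower mean in adenoma and *Krt18* a higher one. Of 8 colonocyte markers 5 had a lower mean, and *Aqp8*, *B3galt5* and *Scnn1b* a higher one. The colonocyte sum followed *Car4*, with means of 3.28 in adenoma and 4.59 in small intestine. The median of the 3 endothelial markers was higher in adenoma, at 1.02 to 1.82 against -2.86 to -2.25. Of these, *Cdh5* and *Pecam1* had a higher mean in adenoma and *Kdr* a lower one. The median of 4 plasmacytoid dendritic cell markers was likewise higher, at 2.16 to 2.49 against 0.87 to 1.41. Here *Tcf4* and *Il3ra* had a higher mean in adenoma and *Siglech* and *Spib* a lower one. In the CT26 line the mean of *Siglech* was 7.17, against 6.77 to 7.23 in the tissues, and that of *Tcf4* was 3.16, above all tissues. The signal of these 2 probes was therefore not particular to such cells. The part of these cells in the differences was not tested, and in whole tissue fewer cells of a type and less RNA per cell cannot be told apart. With slide as a block, 3 genes were called higher and 11 lower, and the median difference was -1.42 within slide 1 and -1.40 within slide 2. The call count fell from 18 to 11 without adenoma replicate 2 and likewise without adenoma replicate 3, and to 8 when all 14 arrays shared 1 fit, of which *Ifitm1* and *Ifitm3* were the 2 higher ones.

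**Figure D3:**
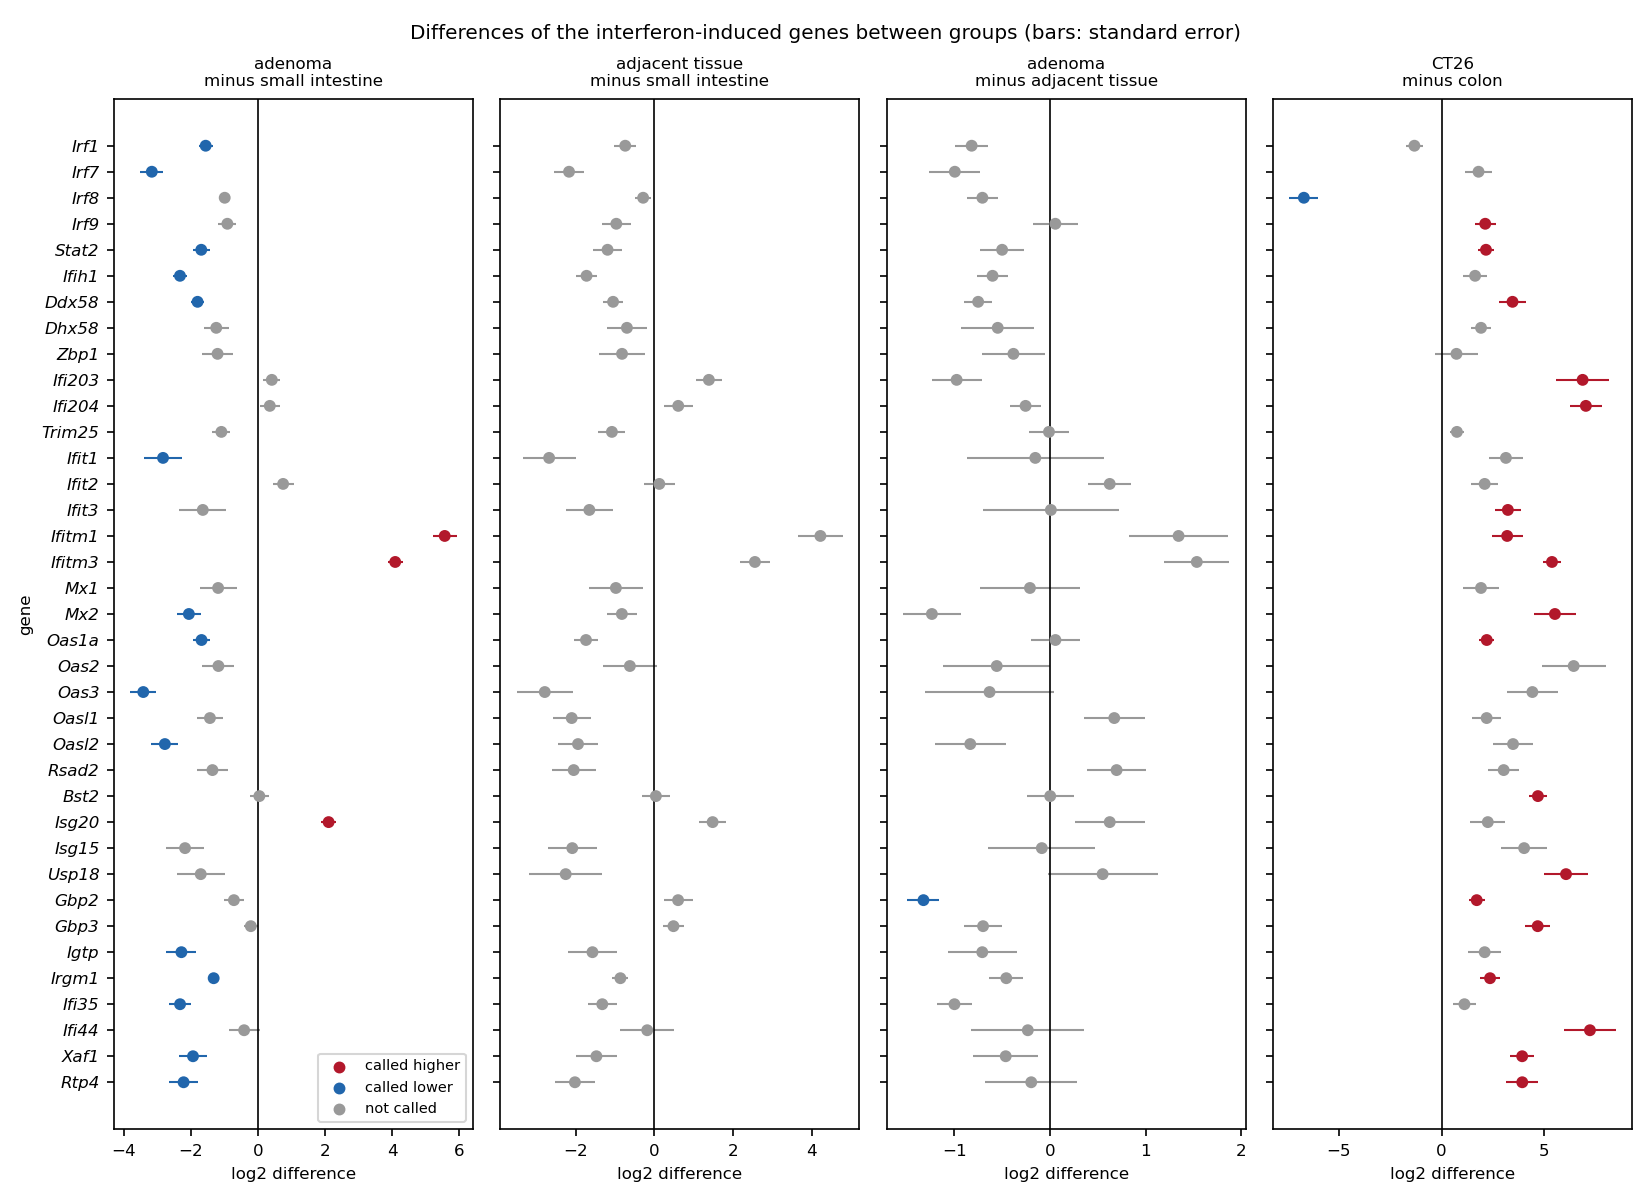
Log2 difference of each of the 37 genes in 4 comparisons, with bars for the standard error from limma and a horizontal scale of its own in each panel. Red points were called higher and blue points lower in the first group, at a log2 difference of at least 1.2 and an adjusted p of at most 0.01, and grey points were not called, which includes every gene between adjacent tissue and small intestine.

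Tissue adjacent to the adenomas was then compared with small intestine, to see which differences were already present beside the lesions. It came from the same mouse as the adenomas, so that the place beside a lesion, genotype and animal cannot be told apart. Of the 37 genes 0 were called in limma, and only 0.00924% of the 21641 genes tested were called higher and 0.0% lower. The lowest adjusted p among the 37 was 0.0455, for *Ifitm1*, and 24 genes had an unadjusted p under 0.05, as did 30.6% of all genes tested. The median difference was -0.98, against -0.10 over all genes. For 20 genes (54.1%) both adjacent arrays lay below all small intestine arrays, as they did for 31.0% of 21610 genes. For 22 of the 37 (59.5%) the mean in adjacent tissue lay between those of small intestine and adenoma, being below the former, as it did for 32.6% of 22466 genes.

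*Ifitm1* was the gene furthest apart, at 3.48 and 5.13 on the adjacent arrays, above all 3 small intestine arrays. The difference of 4.23 (standard error 0.58) had a limma adjusted p of 0.0455. *Ifitm3*, at 3.28 and 4.37, also lay above all small intestine arrays, with a difference of 2.56 (limma adjusted p = 0.0473). *Oas3* measured -3.47 and -1.23, below all small intestine arrays, with a difference of -2.79 (standard error 0.72, limma adjusted p = 0.0788). *Ifit1* measured -1.74 and 0.06, again below all of them, with a difference of -2.68 (standard error 0.67, limma adjusted p = 0.0773). Both genes differed between the 2 adjacent arrays by more than 1.7 log2 units. With slide as a block 0 genes were called, and the median was -1.23 within slide 1 and -0.88 within slide 2. At an adjusted p of 0.05, 3 genes would be called, which are *Ifitm1* and *Ifitm3*, both higher, and *Ifih1*, lower. T cell markers summed to 2.07 to 2.26 in adjacent tissue, between the ranges of adenoma and small intestine. The macrophage markers had no common order, since the mean of *Itgam* was 6.04 in small intestine, 4.69 in adjacent tissue and 2.95 in adenoma, whereas that of *C1qa* was -0.04, 0.43 and 0.66. The part of either cell type was not tested.

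Adenoma and adjacent tissue, both from the same mouse, differed less. *Gbp2*, a guanylate-binding GTPase that attacks the vacuoles of intracellular pathogens, was the only one of the 37 genes called, and it was lower in adenoma, where 1.78% of 22199 genes were called lower and 2.4% higher. *Gbp2* measured -0.62, -0.87 and -0.80 in adenoma and 0.67 and 0.44 in adjacent tissue. The arrays did not overlap, with a difference of -1.32 (standard error 0.17, limma adjusted p = 0.00826). The call was lost with slide as a block, and without each of the arrays in turn. *Ifitm3* and *Ifitm1* were higher on every adenoma array than on both adjacent arrays, by 1.53 (standard error 0.34, limma adjusted p = 0.0321) and 1.34 (standard error 0.52, limma adjusted p = 0.12), but did not pass the threshold, and the nearest arrays of *Ifitm1* were almost level. *Ifitm3* was called without adjacent tissue replicate 2. Every adenoma array lay below both adjacent arrays for 13 genes (35.1%, against 28.7% of 22167 genes), among them *Mx2*, *Ifi35*, *Irf7*, *Irf1*, *Ddx58* and *Ifih1*.

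The median difference between adenoma and adjacent tissue was -0.38, and -0.04 over all genes tested. Its direction rested on adjacent tissue replicate 2, since the median was 0.21 without that array and -0.77 without the other. Within slide 1 it was 0.11 and within slide 2 it was -0.68. The oligoadenylate synthetase gene *Oas1a* (log2 difference 0.06), *Isg15* (-0.08) and *Ifit3* (0.01) had nearly equal means in both groups, with standard errors of 0.25, 0.56 and 0.71.

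Between colon and small intestine, both labelled C57BL/6J (with 1 colon sample listed under an *Apc* Min/+ mouse, as given above), 0 of the 37 genes were called in limma, and 0.00484% of 20645 genes were called in each direction. Only 4 of the 37 had an unadjusted p under 0.05, against 23.9% of all genes, and the lowest adjusted p was 0.105, for *Ifih1*. The median difference was -0.60, against -0.08 over all genes. It moved widely with the arrays, being 0.21 within slide 1, -1.15 within slide 2, -0.90 without colon replicate 3 and -0.01 without colon replicate 1, and 0 genes were called with slide as a block. *Isg20* measured 2.98, 3.57 and 0.13 in colon and -0.25, -0.01 and -0.36 in small intestine. All colon arrays lay above, by a wide margin on 2 of them, and the difference of 2.43 (standard error 0.85) had a limma adjusted p of 0.163. Without colon replicate 3 its difference was 3.48 and it was called higher, the only one of the 37, where 3.34% of 22601 genes were called higher and 3.9% lower. *Oas3* measured -4.95, 0.63 and -0.97 in colon and overlapped with small intestine, with a difference of -2.20 (standard error 1.33, limma adjusted p = 0.354), and -2.60 without colon replicate 3. *Ifi35*, a protein that binds other interferon-induced factors, measured 1.87, 2.50 and 4.01 in colon and 4.09, 4.94 and 5.27 in small intestine. It did not overlap, with colon replicate 3 the nearest to small intestine, and its difference of -1.97 (standard error 0.60) had a limma adjusted p of 0.131. Without that array it was -2.58 (limma adjusted p = 0.0101). Summed B cell markers were 0.91, 1.62 and 3.83 on the 3 colon arrays, highest on replicate 3, and -1.65 to -1.05 in small intestine (4 of 4 above background in colon, 1 to 4 of 4 in small intestine), and their part was not tested.

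CT26 was compared with colon, the tissue of origin of the carcinoma line. Of the 37 genes, 18 were higher in CT26 (48.6%) and 1 was lower (2.7%), where 21.0% and 16.2% of 21692 genes were called in these directions. The median difference was 3.03, against 0.32 over all genes tested. For 31 genes (83.8%) every CT26 array lay above every colon array, as it did for 39.3% of 21668 genes.

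*Ifi44*, a cytoplasmic protein of uncertain function, and *Ifi204* were among the genes furthest apart. *Ifi44* measured 5.60, 5.76 and 5.64 in CT26 and -4.73, 1.04 and -1.02 in colon, where it was well above background on 2 of 3 arrays. CT26 was uniform and colon was not, and the difference was 7.24 (standard error 1.25, limma adjusted p = 0.00223). It was 7.51 without colon replicate 3 and 5.66 without colon replicate 1, when *Ifi204*, at 6.22, lay further apart. *Ifi204* and *Ifi203* belong to the p200 family of DNA-binding sensors, a cluster of similar genes on chromosome 1, so that their probes may share signal. *Ifi204* measured 6.88, 5.34 and 5.33 in CT26 and -2.82, 0.13 and -0.87 in colon, far from overlap, with a difference of 7.04 (standard error 0.78, limma adjusted p = 0.000246), and 7.20 without colon replicate 3. *Ifi203* measured 5.22, 3.63 and 3.67 in CT26 and -2.12, -0.19 and -5.81 in colon, the last not well above background. Its difference was 6.88 (standard error 1.28, limma adjusted p = 0.00315), and 5.33 without colon replicate 3, and all 4 of its probes were called higher. *Usp18* measured 6.70, 5.42 and 5.35 in CT26, above all the tissue arrays, and was 67.2-fold higher than in colon (log2 difference 6.07, standard error 1.09, limma adjusted p = 0.00267). Without colon replicate 3 the difference was 6.66, and without colon replicate 1 it was 4.68.

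*Irf8* was the exception. This transcription factor, needed for the development of dendritic cells and monocytes, measured -4.11, -1.66 and -2.57 in CT26 and 3.22, 3.53 and 5.04 in colon. It was lower on every CT26 array than on any tissue array, and 105-fold lower than in colon (log2 difference -6.71, standard error 0.71, limma adjusted p = 0.000198), with a log2 difference of -6.15 without colon replicate 3. It lay well above background on all CT26 arrays. Leukocyte markers moved with it, with 1 to 2 of 4 above background in CT26 and 3 to 4 in colon, and sums of -2.18 to -2.08 against 1.72 to 4.08. The leukocyte gene *Laptm5* was not well above background on any CT26 array and *Ptprc* was on 1, and the part of leukocytes in this difference was not tested.

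**Figure D4:**
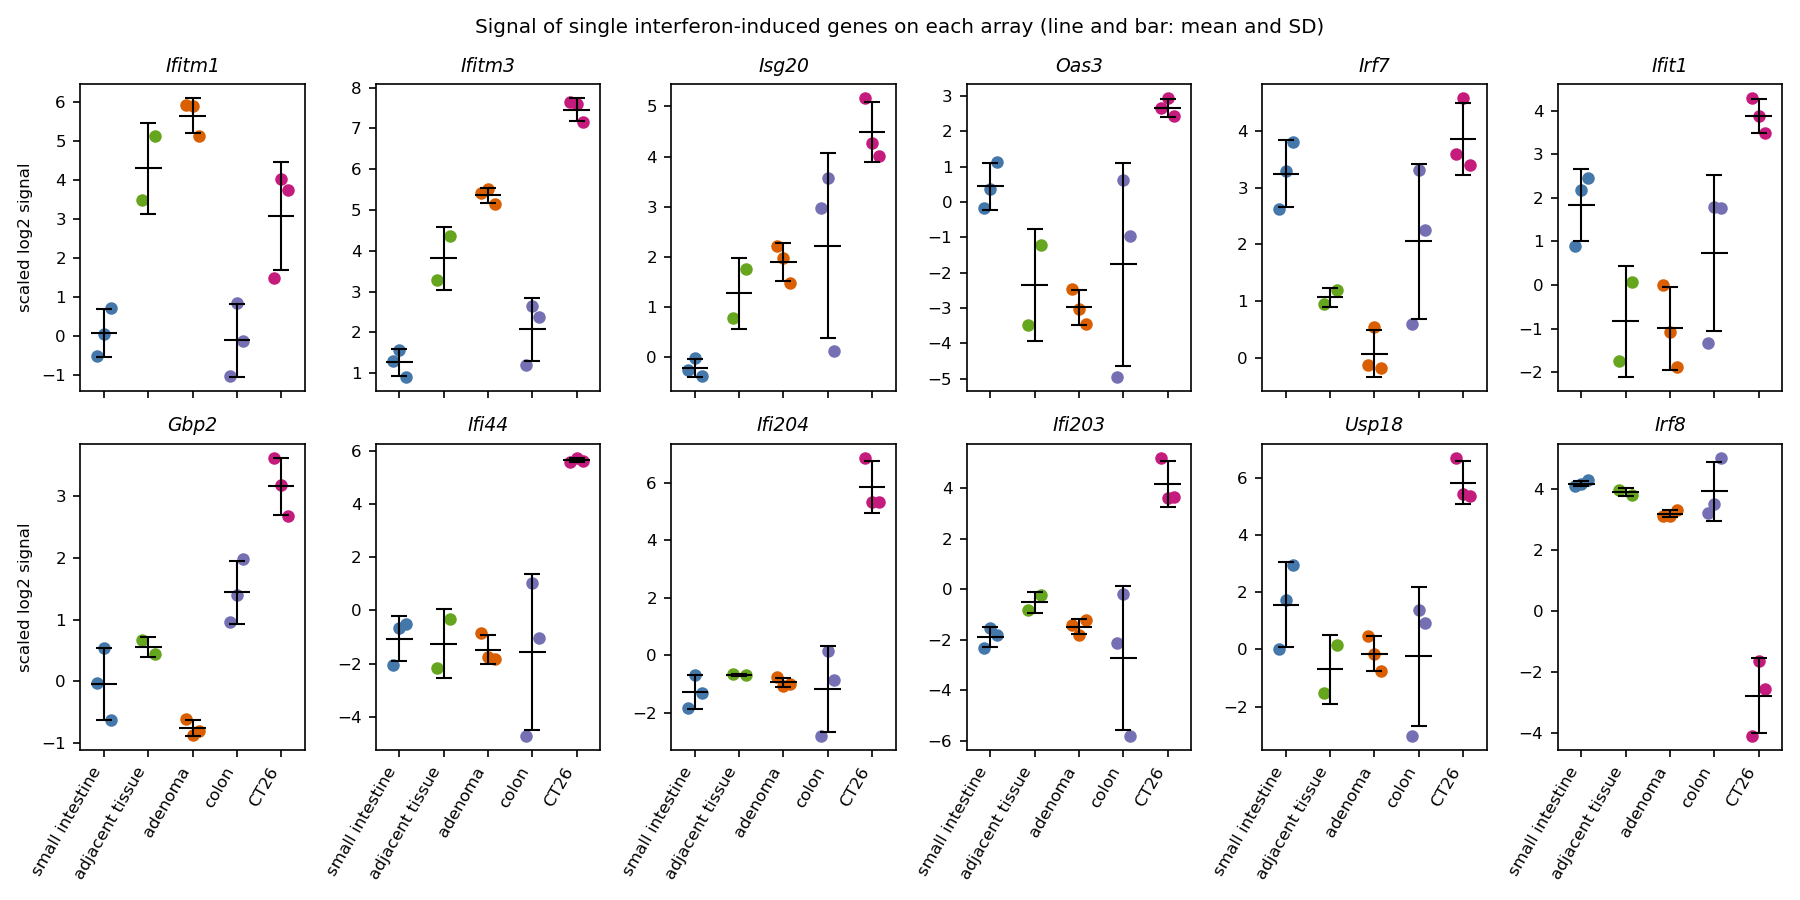
Scaled log2 signal of 12 of the genes described, a point per array with the mean and SD of each group (n = 3, and 2 in adjacent tissue) and a scale of its own in each panel. *Ifitm1*, *Ifitm3* and *Isg20* are above small intestine in adjacent tissue and adenoma, *Oas3*, *Irf7* and *Ifit1* are below it there, *Ifi44*, *Ifi204*, *Ifi203* and *Usp18* stand far above all tissues in CT26, and *Irf8* far below them.

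By role, *Stat2* and *Irf9*, which form the complex that binds the response element, were 4.49- and 4.38-fold higher in CT26, the call of *Irf9* holding under 4 of 14 alternatives (limma adjusted p up to 0.0351). *Irf7* had a log2 difference of 1.80 (limma adjusted p = 0.0566) and *Irf1* one of -1.32 (limma adjusted p = 0.034). *Ddx58* was 11-fold higher, while *Ifih1* had a log2 difference of 1.64 (limma adjusted p = 0.0484). Of 15 antiviral effectors, 6 were higher, from *Mx2* (46.1-fold), which encodes a dynamin-like GTPase, through *Ifitm3* (41.8-fold), *Bst2* (26.0-fold), *Ifit3* (9.42-fold) and *Ifitm1* (9.19-fold) to *Oas1a* (4.61-fold). *Bst2*, which tethers budding virus to the cell and has 2 overlapping cores in its window, measured 6.80, 7.67 and 6.83 in CT26 and 1.71, 3.17 and 2.32 in colon, a gap of more than 3 log2 units, and its difference was 4.70, or 4.66 without colon replicate 3. Among the GTPases *Gbp3*, *Irgm1* and *Gbp2* were 25.8-, 5.16- and 3.29-fold higher, and among the rest *Xaf1* and *Rtp4* were each 15.3-fold higher. A dimmer probe of *Xaf1* had the opposite sign, with a log2 difference of -1.06 (limma adjusted p = 0.572). The calls of *Gbp2*, *Ifitm1* and *Irgm1* held under 4, 6 and 8 of the 14 alternatives, with limma adjusted p-values up to 0.029, 0.0357 and 0.0222. *Isg15* measured 8.27, 7.96 and 7.43 in CT26 and 0.94, 5.35 and 5.29 in colon, without overlap, but its difference of 4.03 had a standard error of 1.11 and a limma adjusted p of 0.0174. Without colon replicate 3 it was 4.74 and was called (limma adjusted p = 0.0098), as it was without colon replicate 1, at 2.57 (limma adjusted p = 0.00227). *Oas2* had a log2 difference of 6.44 and an adjusted p just over the threshold, with colon values from -4.14 to 3.04. The 18 genes that were not called had log2 differences from -1.32 to 6.44. Among them *Zbp1*, which senses left-handed nucleic acids, *Ifi35*, *Mx1* and *Igtp* overlapped between the groups. *Trim25* was not called at its brighter probe, with a log2 difference of 0.75 (limma adjusted p = 0.115). Its other probe was called higher, at 1.84 (limma adjusted p = 0.00437).

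Without colon replicate 3, 23 genes were called, 22 of them higher, and 18 were shared with the 19 above, where 20.1% of 23184 genes were called higher and 19.4% lower. The call of *Ifitm1* was lost, and *Ifit1*, *Oasl1*, *Isg15*, *Igtp* and *Ifi35* were called in addition. The median difference was 3.19, and the differences of the 37 moved by up to 1.55 in size. The count was 8 without CT26 replicate 1 and 12 without CT26 replicate 2. The shares of all genes called without these CT26 arrays are not given, so these counts cannot be read as particular to the 37 genes. *Bst2*, *Gbp3*, *Ifi204*, *Ifitm3*, *Oas1a*, *Xaf1* and, lower, *Irf8* were called under every alternative and with any array left out. With slide as a block 15 genes were called, and the median difference was 1.92 within slide 1, which holds 1 colon array, and 3.15 within slide 2, which holds 1 CT26 array.

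Adenoma was last set beside colon. Lesion and organ cannot be told apart here, and the adenomas again come from 1 mouse. *Ifitm1* and *Ifitm3* were higher in adenoma and *Gbp2* was lower, where 2.07% and 1.63% of 21861 genes were called in these directions. The arrays of *Ifitm1*, 5.92, 5.89 and 5.14 in adenoma and -1.04, 0.84 and -0.14 in colon, stood more than 4 log2 units apart, with a difference of 5.76 (standard error 0.51, limma adjusted p = 0.00289). *Ifitm3* measured 1.2, 2.64 and 2.39 in colon, with a difference of 3.28 (standard error 0.40, limma adjusted p = 0.0068). *Gbp2* measured 0.96, 1.40 and 1.98 in colon, above all adenoma arrays, with a difference of -2.21 (standard error 0.29, limma adjusted p = 0.00832). All 3 were called without colon replicate 3 as well, at differences of 5.75, 3.43 and -1.94 (where 5.03% of 23064 genes were called higher and 6.69% lower), and 0 were with slide as a block or without any 1 of the adenoma arrays, while 2 were called without colon replicate 1 and 1 without colon replicate 2. The median difference was -0.73, against -0.06 over all genes, with -0.47 without colon replicate 3, -1.61 within slide 1 and -0.23 within slide 2. The adenoma comparisons share their adenoma arrays, and those with small intestine share theirs, so that they are not independent of each other.

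The calls were also read against the response element. Between CT26 and colon 10 of the 16 genes with the core in their window were called higher, and of the 13 genes without it 4 were called higher and 1 lower. Between adenoma and small intestine 8 of the 16 were called lower and 1 higher, and of the 13, 5 were called lower and 2 higher. The medians of these differences were 3.19 with and 2.13 without the core in CT26, and -1.67 and -1.09 in adenoma. Of all genes tested, 21.0% were called higher and 16.2% lower in CT26 than in colon. Between adenoma and small intestine 11.1% of all genes tested were called lower and 11.3% higher. The counts by response element are a description and were not tested.

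The rest of the pathway was read from lists of ligands, receptors and signal transduction, upstream sensing and other induced genes. Of 17 interferon ligands, 14 were found and 5 to 7 could be tested in any comparison. *Ifnb1*, the gene of interferon beta, was well above background on all CT26 arrays (-2.08 ± 1.38, SD, n = 3) and on no tissue array. It was at least 5.5-fold higher in CT26 than in colon, taken against the lowest signal well above background (limma adjusted p = 0.0014), and at least 7.58-fold without colon replicate 3. *Ifng* was well above background on 1 array in all, of small intestine. *Il28b*, a type III interferon gene, was 2.5-fold lower in adenoma than in small intestine (limma adjusted p = 0.00489).

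Of 12 genes of receptors and signal transduction, 1 was higher (8.33%) and 5 lower (41.7%) in CT26 than in colon, against 21.0% and 16.2% of all genes tested. *Ifnar2*, a chain of the type I receptor, was 4.28-fold higher, and the other chain, *Ifnar1*, was 4.53-fold lower. *Ifngr1* and *Ifngr2*, the chains of the receptor of interferon gamma, were 6.0- and 5.52-fold lower. *Il28ra*, the specific chain of the type III receptor, was at least 88.5-fold lower, since CT26 did not stand well above background, and its partner *Il10rb* was 3.23-fold lower. In adenoma, *Il28ra*, *Il10rb* and the kinase gene *Jak2* were lower than in small intestine by 2.48-, 2.79- and 2.7-fold (25.0% of the 12, against 11.1% of all genes), and 0 of the 12 were called against adjacent tissue.

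Of 13 genes of upstream sensing, 3 were higher (23.1%) and 4 lower (30.8%) in adenoma than in small intestine, against 11.3% and 11.1% of all genes tested. *Tmem173*, which encodes STING, the adaptor of cytosolic DNA sensing, measured 4.39 ± 0.15 (scaled log2 signal, SD, n = 3) in adenoma, 1.86 ± 0.55 (SD, n = 2) in adjacent tissue and -0.04 ± 0.18 (SD, n = 3) in small intestine. It was 21.5-fold higher in adenoma than in small intestine (limma adjusted p = 4.52e-05), 5.76-fold higher than in adjacent tissue (limma adjusted p = 0.00576) and 6.28-fold higher than in colon (limma adjusted p = 0.00572), or 7.73-fold without colon replicate 3. The call against colon was lost without colon replicate 1 (limma adjusted p = 0.0242). The gene of cGAS, listed as *E330016A19Rik*, was 2.88-fold higher than in small intestine, and *Tlr4*, the receptor of bacterial lipopolysaccharide, was also higher, with small intestine above background on 1 of 3 arrays. *Mavs*, the adaptor of RIG-I and MDA5, *Ticam1*, the adaptor of the receptor *Tlr3*, and the kinase genes *Tbk1* and *Ikbke* were lower by 4.01-, 2.87-, 3.27- and 4.1-fold. In CT26, cGAS, *Tmem173* and *Tlr7*, a receptor of single-stranded RNA, were 11.9-, 4.38- and 2.67-fold higher than in colon, and 0 of the 13 were lower. These 3 genes are 23.1% of the list, near the 21.0% of all genes called higher.

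Among 25 other induced genes, 23 were found and tested against small intestine, and 13 were lower in adenoma (56.5%, against 11.1% of all genes tested) and 0 higher. They included *B2m* (5.96-fold), *Tap1* (5.74-fold), *Psmb9* (6.24-fold) and *Psmb8* (6.87-fold), which serve antigen presentation by MHC class I, and *Cmpk2* (10.8-fold), a mitochondrial nucleotide kinase. *B2m*, *Tap1* and *Psmb9* were also lower in adenoma than in adjacent tissue, by 2.57-, 2.62- and 2.96-fold (limma adjusted p = 0.00682, 0.00718 and 0.00895). In CT26 4 of 22 tested were higher than in colon (18.2%), below the 21.0% of all genes. *Cxcl10*, a chemokine that draws T cells, was 53.1-fold higher, *Ifi27l2a* 26.5-fold, *Gbp6* 11-fold and *Eif2ak2*, the kinase PKR, 9.0-fold. Without colon replicate 3 the calls named here between CT26 and colon, for ligands, receptors, upstream sensing and other induced genes, held except that of *Tlr7* (limma adjusted p = 0.0147), and *Tlr4*, *Tap1*, *Tap2*, *B2m* and *Ifi47* were called higher in addition. Without colon replicate 1 those of *Ifngr2*, *Il10rb*, *Tmem173* and *Tlr7* were lost. Between colon and small intestine 0 genes of these lists were called, and 5 were without colon replicate 3, which are *Tmem173*, higher, and *Ticam1*, *Psmb9*, *B2m* and *Cmpk2*, lower.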

How the data were processed

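RNA of 14 samples was labelled with Cy3 and hybridized to 1 Agilent SurePrint G3 Mouse array each. Per the file headers, the authors extracted signals with Feature Extraction 10.7.3.1 (protocol GE1_107_Sep09, build NCBI37/mm9), and the deposited intensity of a spot is its processed signal with background subtracted. The authors also deposited a table of normalized log2 values, by a method not given in the sources used here, which served as an alternative. Fold changes and p-values of the authors' own comparisons in that table were not used.

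Without control and outlier spots, each processed signal was put on the log2 scale, lowered by the 75th percentile of its array and averaged over the spots of a probe. A gene was its brightest probe over all arrays. Probes that stood well above background throughout at least 1 of the 2 groups were tested with lmFit and eBayes of limma 3.58.1 (R 4.3.3), each pair of groups on its own arrays, and the script was tested on simulated data. Benjamini-Hochberg adjustment ran over all probes tested, and the thresholds, a log2 difference of 1.2 and an adjusted p of 0.01, follow the paper. The smallest groups hold 2 and 3 arrays, which limits the precision, and p-values measure only the spread between these samples. Probes of similar genes (*Ifi203* and *Ifi204*, *Oas1a* and its copies, *Ifit3* and its copy) may share signal.

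The genes and all lists were chosen with earlier results of these data known. All genes called are named, by role, and values on every array are given for at most 5 called genes without overlap per comparison, those with the largest log2 difference in size, and, where fewer than 3 are called, for the 3 tested genes with the largest; further genes were added where a pattern turned on them. Alternatives were the authors' table, quantile normalization, background correction by normexp with an offset of 50, no filter on dim probes, 1 fit of all arrays, a block for slide or for replicate number, an adjusted p of 0.05, any probe of a gene, and omission of each array in turn. Promoter windows came from RefSeq (GRCm38.p6) and were not set against the probe positions. Some items of the lists are not reported here.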

Additional observations from a re-analysis of the deposited data

How the results depend on the processing

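Between adenoma and small intestine 18 of the 37 genes were called, 8 with all 14 arrays in 1 fit and 11 to 25 with an array left out. Between adenoma and adjacent tissue the count of 1 became 3 at an adjusted p of 0.05, 0 without a filter on dim probes, 0 with all 14 arrays in 1 fit, 0 with the replicate block, 0 with the slide block and 0 to 1 with an array left out. Between adjacent tissue and small intestine the count of 0 became 3 at an adjusted p of 0.05 and 1 in the fit of all arrays. Between colon and small intestine it was 0 under every alternative that kept all arrays and 0 to 1 with an array left out. Between CT26 and colon 19 genes became 30 at an adjusted p of 0.05, 30 in the fit of all arrays and 8 to 23 with an array left out. Between adenoma and colon 3 genes became 6 at an adjusted p of 0.05, 1 without a filter, 0 with the replicate block, 0 with the slide block and 0 to 3 with an array left out. The cause of these moves was not tested, apart from the fewer arrays of the last kind. Apart from the omission of colon replicate 3, the shares of all genes under these settings and the slide blocks above are not given. Moves in the counts of the 37 genes therefore cannot be told apart from moves over all genes. The replicate numbers were not shown to pair the arrays. Deviations of arrays of the same number correlated at -0.322 to 0.291, and no set of 3 pairs was above 0.1 throughout. Those of adjacent tissue and small intestine, a set of fewer pairs, were at 0.291 and 0.141. The titles number the adjacent arrays otherwise, and pairs by title were not checked. With replicate number as a block, 13 genes were called between adenoma and small intestine and 15 between CT26 and colon. No gene called changed direction under any alternative. Signal over background limits the colon values of *Ifi203*, *Oas3* and *Ifi44*.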
